A study of Homo sapiens with 9 samples.

Results

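The collagen chain genes of SKOV3 cells were examined in a gene expression study of STXBP6 knockdown. They were taken as the protein-coding rows of the deposited gene table whose symbol is COL, a type number, A and a chain number, which gave 42 genes of 36785. Of these, 33 were measured, meaning that a count of 10 or more was reached in at least 3 libraries, and the same 33 were tested. SKOV3 is an established human ovarian carcinoma cell line. The table held 9 RNA-seq libraries in 3 groups of 3: sh1, with the genotype label STXBP6 knockdown_1, sh3, with the genotype label STXBP6 knockdown_3, and shNC, with the genotype label NC, used as the control. Lentiviral transduction was the labelled treatment in all 3 groups, so the control cells had been transduced too. Neither separate cultures within a group nor single clones are mentioned in the labels. A p-value here therefore measures only how these libraries scatter, which may be technical.

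Collagens are extracellular matrix proteins in which chains with repeated Gly-X-Y triplets wind into a triple helix. Prolines and lysines of the chains are hydroxylated in the endoplasmic reticulum before the helix closes, and after secretion the molecules assemble into forms that differ by type: banded fibrils (types I, II, III, V and XI), the sheet of the basement membrane (type IV), beaded microfibrils (type VI), anchoring fibrils (type VII) and short-chain networks (type VIII). Type VI collagen in its classical form is built from COL6A1, COL6A2 and COL6A3 chains, and its COL6A3 chain carries the C-terminal domain that is cleaved off as endotrophin. Epithelial cells and carcinoma lines make basement membrane collagens, while fibroblasts are the main source of type I and type III collagen in tissues.

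STXBP6, the targeted gene, had counts of 7, 4 and 26 in the sh1 libraries, 20, 31 and 18 in the sh3 libraries and 4, 0 and 15 in the shNC libraries, of 57654447 to 69264400 counts per library. It was therefore near the detection limit, where 3 counts correspond to 0.0433 to 0.0520 CPM, counts scaled to the library total. It was not called lower in either knockdown group. By edgeR's quasi-likelihood test, sh1 minus shNC was 0.87 on the log2 scale (SE 1.02, adjusted p = 0.558) and sh3 minus shNC was 1.81 (SE 1.01, adjusted p = 0.225). Leaving out sh1 replicate 3 gave -0.15 (adjusted p = 0.944) in sh1, and leaving out shNC replicate 3 gave 3.54 (adjusted p = 0.046) in sh3. The knockdown labels could not be checked from these counts, so sh1, sh3 and shNC below mean the libraries labelled so.

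Of the 33 tested chains, 11 were higher and 7 lower in sh1 than in shNC at an adjusted p under 0.05, where 19.9% of all 21296 tested genes were called higher, 18.8% lower and 38.7% either way. In sh3 against shNC 12 chains were higher and 7 lower, beside 14.4% and 12.4% of all tested genes, or 26.9% either way. The sh1 and sh3 comparisons use the same 3 shNC libraries, so their calls are not independent. Higher with both hairpins were 8 chains, COL6A1, COL6A2, COL6A3, COL4A1, COL4A2, COL1A1, COL5A1 and COL18A1, beside 10.6% of all genes. COL4A5 was the 1 chain lower with both, beside 8.43% of all genes. Chains called in opposite directions by the hairpins were 4, COL1A2, COL5A2, COL8A1 and COL12A1, beside 1.23% of all genes. Between the hairpins, 8 chains were higher and 9 lower in sh3 than in sh1, beside 12.9% and 13% of all genes, or 25.9% either way. The median log2 fold change over the 33 chains was -0.04 in sh1 and -0.04 in sh3 against shNC, beside -0.02 and -0.01 over all tested genes, and so lay close to 0. Averaging the hairpins against shNC, 10 chains were higher and 8 lower, beside 18.5% and 17.7% of all genes, or 36.2% either way, and the 8 became 5 without shNC replicate 1. The 8 chains higher in sh3 than in sh1 became 5 without sh1 replicate 2, without sh1 replicate 3 or without sh3 replicate 3. In bulk RNA a change in the share of expressing cells and a change in RNA per cell cannot be told apart.

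**Figure D1:**
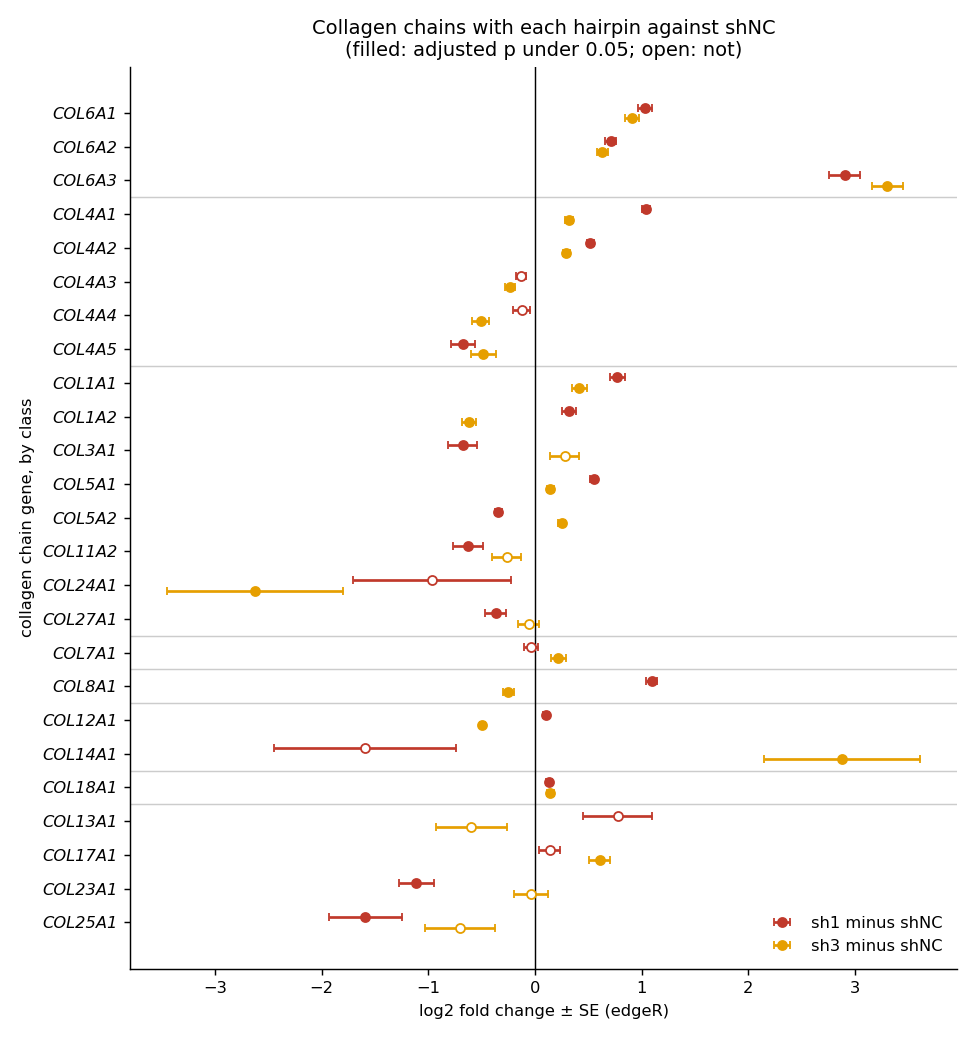
Log2 fold changes of the 25 chains described individually, with sh1 (red) and sh3 (orange) each against shNC and bars for the standard error from edgeR; filled points passed an adjusted p under 0.05, open points did not, and lines separate the structural classes. COL6A3 stands at 2.91 and 3.30, while COL1A2, COL5A2, COL8A1 and COL12A1 have filled points on opposite sides of 0.

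All 3 measured type VI chains rose with both hairpins, and COL6A3 rose the most. COL6A3 (ENSG00000163359, GRCh38 chromosome 2, 237324003 to 237414328, minus strand) encodes the long chain that completes the type VI monomer. Its level per transcript length was 1.03, 0.870 and 0.909 FPKM in the sh1 libraries, 1.17, 1.26 and 1.35 FPKM in the sh3 libraries, and 0.131, 0.152 and 0.0907 FPKM in the shNC libraries. The counts behind these values were 1203 to 1492 in sh1, 1774 to 1911 in sh3 and 128 to 241 in shNC. Every sh1 and sh3 library was above every shNC library, and the sh3 libraries were above the sh1 libraries. The rise was 7.5-fold in sh1 (log2 2.91, SE 0.15, adjusted p = 3.56e-08) and 9.88-fold in sh3 (log2 3.30, SE 0.15, adjusted p = 7.84e-08). The sh3 minus sh1 difference of 0.40 (SE 0.13, adjusted p = 0.0409) was lost without any single sh1 or sh3 library (adjusted p 0.0516 to 0.143), without a filter on low counts (0.0741), with limma on log2(FPKM + 0.1) (0.0905) and with the replicate block (0.0641).

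COL6A1 and COL6A2 encode the shorter chains that pair with COL6A3 in the monomer, and their genes lie on chromosome 21 in the same orientation with 93061 bases between them (COL6A1, ENSG00000142156, 45981770 to 46005050; COL6A2, ENSG00000142173, 46098112 to 46132848, both on the plus strand). COL6A1 had 6.67, 6.13 and 6.78 FPKM in sh1, 5.98, 6.16 and 6.21 FPKM in sh3 and 3.4, 3.41 and 2.97 FPKM in shNC. It rose 2.04-fold in sh1 (log2 1.03, SE 0.06, adjusted p = 1.48e-07) and 1.88-fold in sh3 (log2 0.91, SE 0.06, adjusted p = 1.14e-06). COL6A2 had 37.8, 37.7 and 39.1 FPKM in sh1, 35.7, 37.1 and 37.7 FPKM in sh3 and 25.3, 24.7 and 21.5 FPKM in shNC. Both chains were higher in all 6 knockdown libraries than in any control library, while sh1 and sh3 overlapped for COL6A1 and every sh3 library was below every sh1 library for COL6A2, by little. COL6A2 rose 1.64-fold in sh1 (log2 0.71, SE 0.05, adjusted p = 5.79e-07) and 1.55-fold in sh3 (log2 0.63, SE 0.05, adjusted p = 3.97e-06). The sh3 minus sh1 difference did not pass for COL6A1 (-0.12, adjusted p = 0.176) or for COL6A2 (-0.08, adjusted p = 0.278), which reached an adjusted p of 0.0434 without shNC replicate 3. COL6A6, a chain that can take the place of COL6A3 in some tissues, was not measured, with at most 12 counts in a library.

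**Figure D2:**
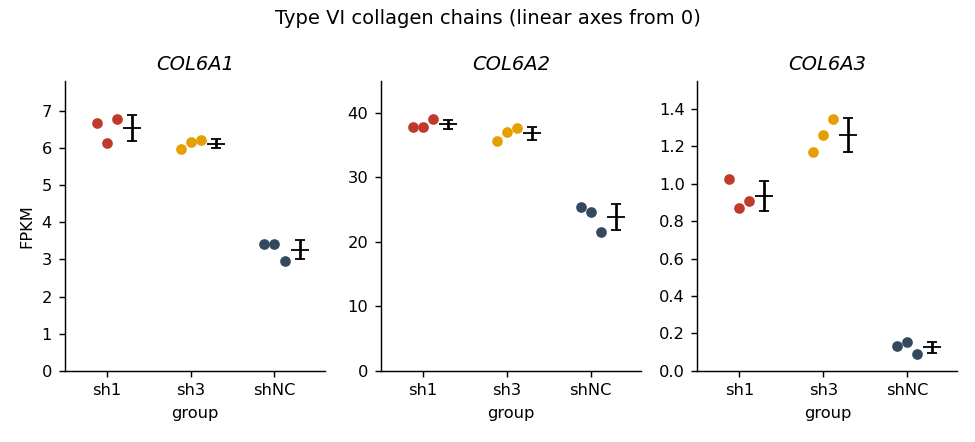
FPKM of the 3 measured type VI chains in the sh1, sh3 and shNC libraries, with points for libraries and a bar for the mean ± SD beside them, on linear axes that start at 0. Each chain is higher in all sh1 and sh3 libraries than in the shNC libraries, and COL6A3 is at 0.0907 to 0.152 FPKM in shNC.

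COL6A3 remained the scarcest of the 3 type VI chains in every library. As a share of the COL6A1 level within a library, the COL6A3 level was 14.3 ± 0.996% in sh1, 20.6 ± 1.10% in sh3 and 3.79 ± 0.702% in shNC (mean ± SD, n = 3 each), given as a description because COL6A3 was below 1 FPKM in shNC. Against COL6A2 the share was 2.45 ± 0.231% in sh1, 3.42 ± 0.151% in sh3 and 0.519 ± 0.0964% in shNC. The COL6A2 to COL6A1 ratio was 5.86 ± 0.262 in sh1, 6.02 ± 0.0559 in sh3 and 7.31 ± 0.117 in shNC. All knockdown libraries were below all control libraries for this last ratio, with log2 differences of -0.32 in sh1 and -0.28 in sh3 (exact two-sided permutation p = 0.1 for each, the smallest that 3 against 3 can give; adjusted p = 0.129 over 9 comparisons of ratios).

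The bases upstream of COL6A3 and COL6A2 are shown because the measured type VI chains rose in both comparisons. COL6A1 rose too, but no RefSeq window was matched for it, so its upstream bases are not shown. The sequences are the 250 bases before the RefSeq start site (GRCh38.p14), written 5′ to 3′ on the gene's strand, with capitals for matches to the searched motifs on either strand. The COL6A3 window is chr2:237414165-237414414 on the minus strand, and the deposited gene model starts 164 bases further upstream than the RefSeq start. The COL6A2 window is chr21:46097862-46098111 on the plus strand.
COL6A3: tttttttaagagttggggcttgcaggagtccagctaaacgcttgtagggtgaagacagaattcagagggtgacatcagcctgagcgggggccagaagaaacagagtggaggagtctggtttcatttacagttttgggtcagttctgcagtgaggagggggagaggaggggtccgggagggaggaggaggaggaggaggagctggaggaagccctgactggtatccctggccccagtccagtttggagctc
COL6A2: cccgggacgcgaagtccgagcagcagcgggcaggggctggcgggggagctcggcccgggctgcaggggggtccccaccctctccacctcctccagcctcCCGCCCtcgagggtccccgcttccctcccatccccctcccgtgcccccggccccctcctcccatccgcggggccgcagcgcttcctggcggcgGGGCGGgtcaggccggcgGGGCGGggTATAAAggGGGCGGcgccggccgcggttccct

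The motifs searched were the TATA box (TATAAA), the CCAAT box (CCAAT), the GC box (GGGCGG), the AP-1 site (TGANTCA), the TEAD site (GGAATG) and the SMAD box (GTCTAGAC). The COL6A2 window held TATAAA at -32 to -27 from the start and 4 copies of GGGCGG, while the COL6A3 window held none of the 6. RefSeq windows were matched by symbol for 32 of the 42 chains and 25 of the 33 measured ones. TATAAA occurred in 4 of these 25 windows (16% beside 10.7% of all 35116 windows), CCAAT in 7 (28% beside 32%) and GGGCGG in 16 (64% beside 42.6%). GGAATG occurred in 1 window, that of COL12A1 (4% beside 11.9%), and TGANTCA and GTCTAGAC in 0 (beside 6.57% and 0.182%). The windows of COL4A1 and COL4A2 overlap, as do those of COL4A3 and COL4A4 and those of COL4A5 and COL4A6. A match in an overlap counts for both genes, so these windows are not independent. A match of letters is a description of the window and not of a factor's binding.

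Type IV collagen, the network of the basement membrane, split into a pair of chains that rose and chains that were lower. COL4A1 and COL4A2, which together form the ubiquitous type IV molecule, rose with both hairpins, more with sh1. COL4A1 had 59.3, 63.8 and 59.8 FPKM in sh1, 36.1, 37.4 and 39.9 FPKM in sh3 and 31.0, 29.7 and 30.5 FPKM in shNC. It rose 2.05-fold in sh1 (log2 1.04, SE 0.04, adjusted p = 3.83e-09) and 1.25-fold in sh3 (log2 0.32, SE 0.04, adjusted p = 7.57e-05). COL4A2 had 49.7, 52.0 and 49.4 FPKM in sh1, 42.5, 42.8 and 46.7 FPKM in sh3 and 36.9, 35.7 and 35.1 FPKM in shNC. The groups did not overlap for either chain, and both stood in the order sh1, sh3, shNC from high to low. COL4A2 rose by 0.52 on the log2 scale in sh1 (adjusted p = 3.87e-07) and by 0.30 in sh3 (adjusted p = 8.01e-05). Directly compared, sh3 was lower than sh1 by -0.72 for COL4A1 (adjusted p = 1.62e-07) and by -0.22 for COL4A2 (adjusted p = 6.61e-04).

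COL4A1 (chromosome 13, 110148963 to 110307157, minus strand) and COL4A2 (110305812 to 110513209, plus strand) are transcribed away from each other, and their deposited gene models overlap by 1346 bases. The libraries mark strand, but the sources do not state whether the counting used it, so reads in the overlap could be assigned to either gene. Between the RefSeq start sites lie 126 bases, chr13:110307158-110307283 (GRCh38.p14), printed from the plus strand because the space is shared by the pair. It held 1 CCAAT at bases 22 to 26 and 1 GGGCGG at bases 62 to 67, shown in capitals.
COL4A1 to COL4A2: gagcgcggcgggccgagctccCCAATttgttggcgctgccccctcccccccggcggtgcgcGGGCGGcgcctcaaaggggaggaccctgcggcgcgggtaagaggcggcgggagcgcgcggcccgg

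The other type IV chains were lower in the knockdown groups where they passed the test. COL4A3, a chain of the glomerular and alveolar basement membrane, had 5.65, 5.28 and 5.18 FPKM in sh1, 4.95, 5.15 and 5.17 FPKM in sh3 and 5.68, 6.38 and 5.93 FPKM in shNC. It fell by 0.23 on the log2 scale in sh3 (adjusted p = 0.00325). Its sh1 value of -0.13 missed the threshold (adjusted p = 0.0526) and passed it in 5 of 16 alternatives, among them without shNC replicate 1 (-0.17, adjusted p = 0.0211) and without sh1 replicate 1 (-0.16, adjusted p = 0.0361), with adjusted p of 0.0158 to 0.0483 in these 5. COL4A4, the chain that pairs with COL4A3 and whose gene lies 418 bases from it in the opposite orientation, had 1.84, 1.84 and 1.86 FPKM in sh1, 1.37, 1.44 and 1.54 FPKM in sh3 and 1.93, 1.92 and 2.34 FPKM in shNC. It fell by 0.51 in sh3 (adjusted p = 5.90e-04), was not called in sh1 (-0.13, adjusted p = 0.250), and was lower in sh3 than in sh1 (-0.38, adjusted p = 0.00428). COL4A5, the chain that joins COL4A3 and COL4A4 in that network, had 0.535, 0.520 and 0.451 FPKM in sh1, 0.524, 0.610 and 0.623 FPKM in sh3 and 0.838, 0.875 and 0.749 FPKM in shNC. All knockdown libraries were below all control libraries for COL4A4 and COL4A5. COL4A5 fell by 0.67 in sh1 (adjusted p = 5.15e-04) and by 0.48 in sh3 (adjusted p = 0.00759). COL4A6, which lies 340 bases from COL4A5 on chromosome X in the opposite orientation, stayed at or below 0.067 FPKM.

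Among the 11 fibril-forming chains, 3 were higher and 4 lower in sh1, and 3 were higher and 2 lower in sh3, than in shNC, beside 19.9% higher and 18.8% lower in sh1 and 14.4% higher and 12.4% lower in sh3 over all tested genes. COL1A1, the major chain of type I collagen, had 8.58, 8.93 and 8.81 FPKM in sh1, 6.99, 6.99 and 7.03 FPKM in sh3 and 5.67, 5.58 and 4.51 FPKM in shNC. It rose by 0.77 on the log2 scale in sh1 (SE 0.07, adjusted p = 3.69e-06) and by 0.42 in sh3 (SE 0.07, adjusted p = 8.55e-04). COL1A2, its partner in the type I trimer, had 1.99, 1.79 and 1.84 FPKM in sh1, 0.970, 0.967 and 1.04 FPKM in sh3 and 1.57, 1.54 and 1.49 FPKM in shNC. So the type I chains moved together in sh1 and apart in sh3, and for both genes the 3 groups did not overlap. COL1A2 rose by 0.32 in sh1 (adjusted p = 0.00219) and fell by 0.62 in sh3 (adjusted p = 3.47e-05), and the hairpins differed by -0.94 for sh3 minus sh1 (adjusted p = 1.59e-06).

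Type V collagen, which starts and limits the growth of type I fibrils, also split between its chains. COL5A1 had 41.9, 43.0 and 42.4 FPKM in sh1, 31.6, 32.4 and 33.7 FPKM in sh3 and 30.6, 30.0 and 28.1 FPKM in shNC. It rose by 0.55 in sh1 (adjusted p = 1.36e-07) and by 0.14 in sh3 (adjusted p = 0.00744). COL5A2 had 36.5, 37.2 and 36.1 FPKM in sh1, 54.7, 55.7 and 58.9 FPKM in sh3 and 47.9, 48.7 and 45.8 FPKM in shNC. Every sh1 library was below, and every sh3 library above, the control libraries. COL5A2 fell by 0.34 in sh1 (adjusted p = 4.70e-06) and rose by 0.25 in sh3 (adjusted p = 1.13e-04), and sh3 exceeded sh1 by 0.59 (adjusted p = 1.80e-07). COL3A1, the chain of type III collagen whose gene faces that of COL5A2 across 19151 bases of chromosome 2, had 0.994, 0.977 and 0.948 FPKM in sh1, 1.74, 1.96 and 2.09 FPKM in sh3 and 1.35, 1.46 and 1.97 FPKM in shNC. It fell by 0.68 in sh1 (adjusted p = 0.00181) and was higher in sh3 than in sh1 by 0.95 (adjusted p = 3.37e-04). Against shNC the sh3 value of 0.28 did not pass (adjusted p = 0.161), and it passed without shNC replicate 3 (0.46, adjusted p = 0.00787).

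**Figure D3:**
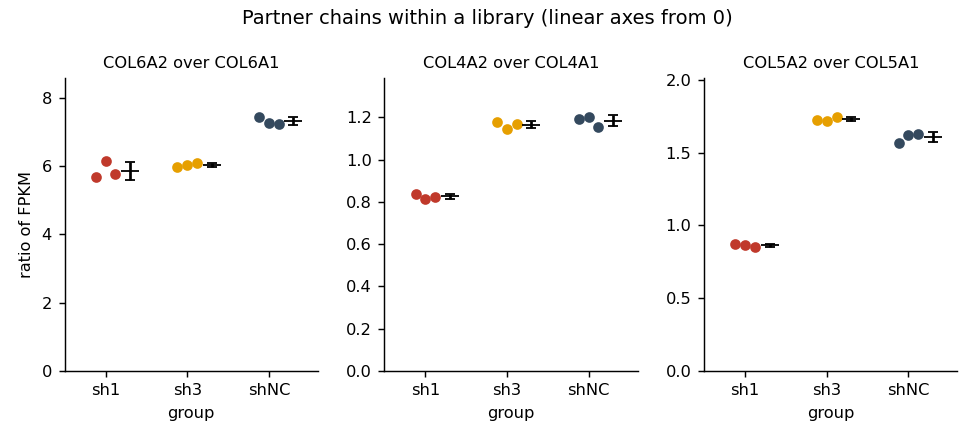
Ratios of FPKM between partner chains within a library for COL6A2 over COL6A1, COL4A2 over COL4A1 and COL5A2 over COL5A1 in sh1, sh3 and shNC, with points for libraries and bars for the mean ± SD on linear axes from 0. The sh1 libraries stand apart for the type IV and type V pairs, and both knockdown groups are below shNC for the type VI pair.

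The partner ratios give the same chains within a library. COL5A2 over COL5A1 was 0.863 ± 0.00921 in sh1, 1.73 ± 0.0150 in sh3 and 1.60 ± 0.0341 in shNC (mean ± SD, n = 3 each). COL5A1 was thus the more abundant chain in sh1 and COL5A2 in the other groups, with log2 differences of -0.90 for sh1 and 0.11 for sh3 against shNC and 1.01 for sh3 against sh1 (exact permutation p = 0.1 for each, adjusted p = 0.129). COL4A2 over COL4A1 was 0.826 ± 0.0114 in sh1, 1.16 ± 0.0162 in sh3 and 1.18 ± 0.0261 in shNC. COL4A1 exceeded COL4A2 in the sh1 libraries only. Its log2 difference was -0.52 for sh1 (exact permutation p = 0.1) and -0.02 for sh3 (exact permutation p = 0.4) against shNC.

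The minor fibril-forming chains were scarcer. COL11A2, a chain of the type XI fibrils of cartilage, had 0.667, 0.678 and 0.710 FPKM in sh1, 0.840, 0.908 and 0.952 FPKM in sh3 and 1.25, 1.14 and 0.856 FPKM in shNC. It fell by 0.63 in sh1 (adjusted p = 0.00332). In sh3 it was not called (-0.26, adjusted p = 0.194), but without shNC replicate 3 it was (-0.41, adjusted p = 0.0241), as was sh3 minus sh1 (0.36, adjusted p = 0.0779 with all libraries and 0.0267 without that one). COL27A1, a chain of cartilage fibrils, had 0.722, 0.711 and 0.769 FPKM in sh1, 0.852, 1.01 and 0.936 FPKM in sh3 and 1.01, 1.05 and 0.845 FPKM in shNC. It fell by 0.37 in sh1 (adjusted p = 0.0116, and 0.0582 without shNC replicate 2), and sh3 and shNC overlapped (-0.06, adjusted p = 0.733). Its sh3 minus sh1 difference of 0.31 (adjusted p = 0.0406) was lost in 10 of 16 alternatives, including without shNC replicate 1, any sh1 replicate or sh3 replicate 2 or 3 (adjusted p 0.0536 to 0.150). COL24A1, a fibril chain of developing bone in the mouse, had counts of 12, 19 and 14 in sh1, 0, 4 and 10 in sh3 and 42, 24 and 26 in shNC. Its sh3 value of -2.62 (SE 0.82, adjusted p = 0.0336) rested on these few reads and was lost without any shNC library, without sh1 replicate 1 or 3 and without sh3 replicate 2 (adjusted p 0.0503 to 0.118), while it was -2.03 without sh3 replicate 1 (adjusted p = 0.0468) and -3.81 without sh3 replicate 3 (adjusted p = 0.0172). It was not called in sh1 (-0.96, adjusted p = 0.352).

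Among the 33 chains, COL8A1 had the lowest adjusted p for sh3 minus sh1. Type VIII collagen forms hexagonal networks, best known in the subendothelial matrix and the cornea. COL8A1 had 9.01, 9.18 and 8.71 FPKM in sh1, 3.70, 3.67 and 3.44 FPKM in sh3 and 4.30, 4.52 and 4.06 FPKM in shNC. The sh1 libraries were all above, and the sh3 libraries all below, the control libraries. It rose 2.13-fold in sh1 (log2 1.09, SE 0.05, adjusted p = 1.75e-08) and fell by 0.25 on the log2 scale in sh3 (SE 0.05, adjusted p = 0.00275), with a sh3 minus sh1 difference of -1.34 (SE 0.05, adjusted p = 1.23e-08).

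COL12A1 encodes type XII collagen, which decorates the surface of type I fibrils. It had 34.0, 32.6 and 31.6 FPKM in sh1, 21.8, 21.8 and 22.8 FPKM in sh3 and 31.0, 31.1 and 31.5 FPKM in shNC. The sh3 libraries were far below the others, and the sh1 libraries were just above shNC. It fell by 0.49 in sh3 (SE 0.03, adjusted p = 3.17e-07), and sh3 minus sh1 was -0.59 (adjusted p = 8.08e-08). Its rise of 0.10 in sh1 (adjusted p = 0.0120) was lost with library totals in place of TMM factors (0.06, adjusted p = 0.101), with limma on either FPKM scale (adjusted p 0.111 and 0.118) and without sh1 replicate 1 (0.08, adjusted p = 0.0520).

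COL14A1, another fibril-associated chain, was scarce and uneven. Its counts were 0, 16 and 5 in sh1, 105, 86 and 291 in sh3 and 12, 22 and 32 in shNC. The sh3 libraries were above the rest, and sh3 replicate 3 held the most. The sh3 minus shNC value was 2.88 on the log2 scale (SE 0.73, adjusted p = 0.0118). Without sh3 replicate 3 it was 2.09 (adjusted p = 0.0901), and with limma on log2(FPKM + 1) the adjusted p was 0.0537. The sh3 minus sh1 value was 4.47 (SE 0.83, adjusted p = 0.00192), and it was 6.0 without sh1 replicate 2 (adjusted p = 0.00159) and 3.67 without sh3 replicate 3 (adjusted p = 0.0130), with adjusted p of 3.05e-04 to 0.0381 over all alternatives. In sh1 it was not called (-1.59, adjusted p = 0.173), but without sh1 replicate 2 it was (-3.12, adjusted p = 0.0343).

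COL18A1, the basement membrane multiplexin whose C-terminal fragment is endostatin, was the most abundant chain in every library. It had 132, 134 and 131 FPKM in sh1, 130, 135 and 143 FPKM in sh3 and 125, 126 and 119 FPKM in shNC. Its groups did not overlap with shNC, and the rise was small: 0.13 in sh1 (SE 0.03, adjusted p = 0.00631) and 0.14 in sh3 (SE 0.03, adjusted p = 0.00598). With limma on the FPKM scales the sh1 call was lost (adjusted p 0.0664 and 0.0681). SLC19A1 overlaps it on the opposite strand, with a mean of 4754 counts per library against 76021 for COL18A1. COL7A1, the chain of the anchoring fibrils that tie epithelium to stroma, had 18.7, 16.8 and 15.9 FPKM in sh1, 20.7, 19.9 and 22.0 FPKM in sh3 and 19.4, 18.5 and 16 FPKM in shNC. The sh1 and shNC values overlapped (-0.04, adjusted p = 0.720). Its sh3 rise of 0.22 (adjusted p = 0.0366) was lost in 8 of 16 alternatives, including without shNC replicate 2 or 3 and without sh3 replicate 1 or 3 (adjusted p 0.0540 to 0.129), and without shNC replicate 3 it was 0.14. The sh3 minus sh1 difference of 0.26 (adjusted p = 0.0181) was lost without sh1 replicate 2 or 3 or sh3 replicate 1 or 3 (adjusted p 0.0507 to 0.0787).

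The 4 membrane-spanning collagens, which are anchored in the cell surface by their own transmembrane segment, did not move as a group. COL17A1, the hemidesmosomal chain of epithelia, had 1.51, 1.47 and 1.55 FPKM in sh1, 2.14, 2.27 and 1.99 FPKM in sh3 and 1.58, 1.34 and 1.28 FPKM in shNC. It rose by 0.61 in sh3 (SE 0.10, adjusted p = 6.30e-04), was not called in sh1 (0.14, adjusted p = 0.307), and was higher in sh3 than in sh1 by 0.47 (adjusted p = 0.00371). COL23A1 had 0.998, 0.642 and 0.761 FPKM in sh1, 1.67, 1.49 and 2.01 FPKM in sh3 and 1.77, 1.81 and 1.74 FPKM in shNC. The sh1 libraries were below all others, and the sh3 values spanned those of shNC. COL23A1 fell by 1.11 in sh1 (SE 0.16, adjusted p = 1.84e-04) and differed by 1.07 for sh3 minus sh1 (adjusted p = 5.14e-04), while sh3 was not called against shNC (-0.04, adjusted p = 0.899). COL25A1, known from amyloid plaques of the brain, had counts of 20, 29 and 21 in sh1, 51, 44 and 38 in sh3 and 108, 51 and 62 in shNC, and fell by 1.59 in sh1 (SE 0.34, adjusted p = 0.00295). In sh3 it was not called (-0.70, adjusted p = 0.148). COL13A1, known from the neuromuscular junction, had counts of 63, 79 and 59 in sh1, 24, 21 and 34 in sh3 and 35, 38 and 48 in shNC. It was lower in sh3 than in sh1 by -1.37 (SE 0.33, adjusted p = 0.00964, and 0.0707 with limma on log2(FPKM + 1)), and neither hairpin was called against shNC (0.78, adjusted p = 0.0802 in sh1, which passed at 0.0490 without shNC replicate 3; -0.60, adjusted p = 0.228 in sh3).

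The remaining members carried few reads. COL2A1, COL4A6, COL5A3, COL8A2, COL9A2, COL11A1, COL16A1 and COL21A1 were measured, stayed at or below 0.387 FPKM in every library and were called in no contrast, with a lowest adjusted p of 0.0676. The 9 chains that were not measured were COL6A6, COL9A1, COL9A3, COL10A1, COL15A1, COL19A1, COL20A1, COL26A1 and COL28A1, and the highest count among them was 29, for COL9A3 in sh3 replicate 3. COL6A5 and COL22A1 were not analysed here.

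**Figure D4:**
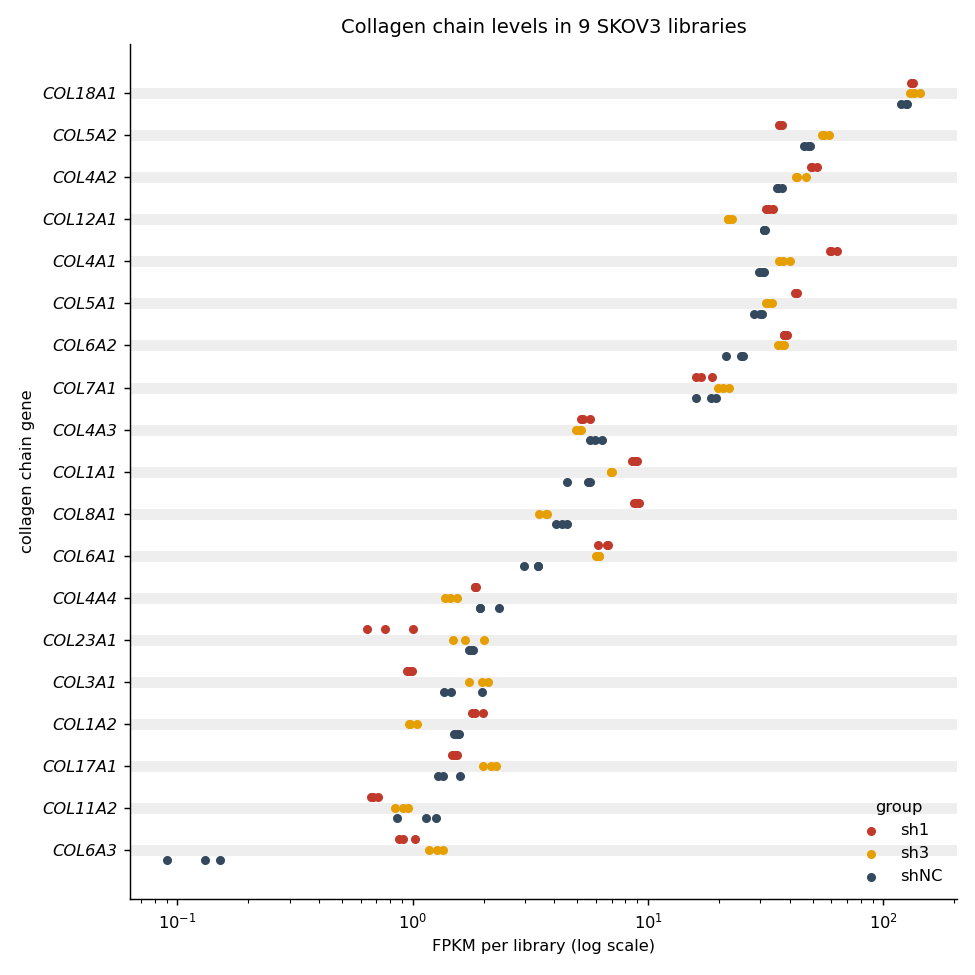
FPKM per library (log axis) of the 19 chains that reached a mean of 1 FPKM in at least 1 group, ordered by their level in shNC, with sh1 in red, sh3 in orange and shNC in dark blue. COL18A1 is highest in every library, and COL6A3 shows the widest gap between the knockdown and control libraries.

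The order of chain levels changed below COL18A1. After it came COL4A1, COL4A2, COL5A1, COL6A2 and COL5A2 in sh1, COL5A2, COL4A2, COL4A1, COL6A2 and COL5A1 in sh3, and COL5A2, COL4A2, COL12A1, COL4A1 and COL5A1 in shNC. Among these neighbours the library values overlapped for COL4A1 and COL6A2 in sh3 and for COL4A1 and COL5A1 in shNC. COL18A1, COL4A1, COL4A2, COL5A1, COL5A2, COL6A2 and COL12A1 together made 86.5% to 87.6% of the summed collagen FPKM of each library. That sum was 451 ± 5.54 FPKM in sh1, 421.6 ± 17.0 FPKM in sh3 and 371.1 ± 11.8 FPKM in shNC (mean ± SD, n = 3 each), and the libraries of both knockdown groups were all above the control libraries.

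**Figure D5:**
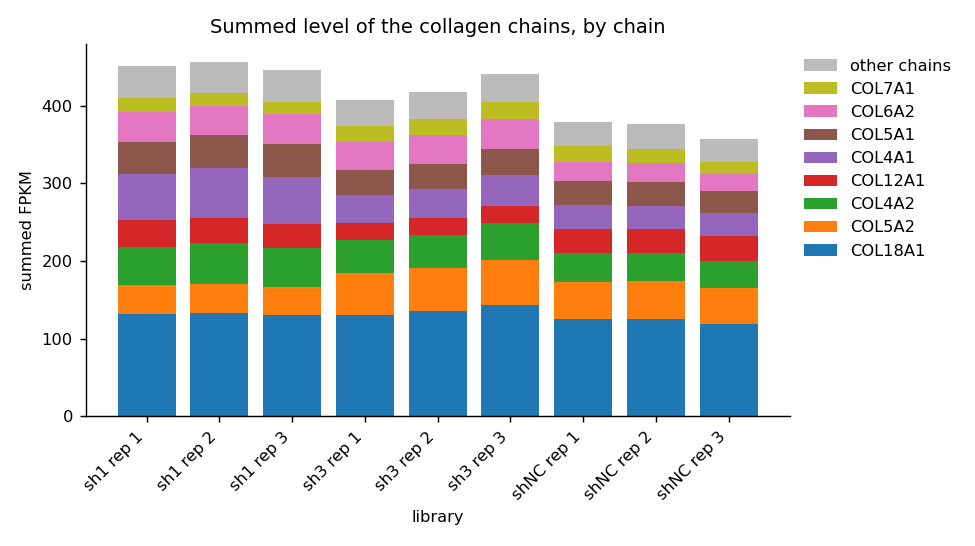
Summed FPKM of the 42 collagen chain genes in each library, stacked by chain, with the sh1 libraries at left, then sh3 and then shNC. The total is 445.4 to 456.5 in sh1, 407.1 to 440.3 in sh3 and 357.6 to 379.1 in shNC, and the COL4A1 segment is thickest in sh1.

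By structural class, type VI chains made 10.1 ± 0.352% of the summed collagen FPKM in sh1, 10.5 ± 0.199% in sh3 and 7.33 ± 0.407% in shNC. Type IV chains made 26.4 ± 0.567% in sh1, 21.1 ± 0.207% in sh3 and 20.3 ± 0.559% in shNC, and fibril-forming chains 20.4 ± 0.148%, 23.9 ± 0.116% and 23.6 ± 0.193% in the same groups. The fibril-associated share was 7.37 ± 0.260% in sh1, 5.43 ± 0.0556% in sh3 and 8.55 ± 0.340% in shNC. The multiplexin share (COL18A1 and COL15A1) was 29.3 ± 0.0729% in sh1, 32.3 ± 0.257% in sh3 and 33.3 ± 0.214% in shNC. The type VI share was therefore above the control in every knockdown library. The fibril-associated and multiplexin shares were below the control in every knockdown library, the former lowest in sh3 and the latter in sh1. The type IV share was highest in sh1, and its sh3 libraries were just above shNC. Shares of a sum depend on each other, and no test was made on them.

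Each list of genes around the collagens held genes called higher and genes called lower with each hairpin. Of 24 genes for chain folding and hydroxylation, 12 were higher and 6 lower in sh1 (median log2 0.17), and 9 were higher and 5 lower in sh3 (median -0.02), than in shNC. Over all tested genes 19.9% were higher and 18.8% lower in sh1, and 14.4% were higher and 12.4% lower in sh3. P4HA3, a prolyl 4-hydroxylase subunit, averaged 2.96 FPKM in sh1, 1.68 FPKM in sh3 and 0.915 FPKM in shNC, and rose by 1.72 in sh1 (adjusted p = 3.69e-07) and by 0.88 in sh3 (adjusted p = 1.62e-04). FKBP10, a chaperone of type I procollagen, averaged 0.442 FPKM in sh1, 1.23 FPKM in sh3 and 0.323 FPKM in shNC, and rose by 1.9 in sh3 (adjusted p = 6.56e-05) but was not called in sh1 (0.47, adjusted p = 0.122). CREB3L1, a transcription factor known to drive type I collagen genes in osteoblasts of the mouse, rose by 1.37 in sh1 (adjusted p = 1.89e-04) and by 0.82 in sh3 (adjusted p = 0.0102). Lower with both hairpins were PLOD2, the telopeptide lysyl hydroxylase (-0.41 in sh1, -0.21 in sh3), HSPA5, the endoplasmic reticulum chaperone BiP (-0.33, -0.22), and P3H4, a partner of a lysyl hydroxylase (-0.41, -0.21). The P3H4 call in sh3 (adjusted p = 0.0381) was lost without shNC replicate 1 or 2, sh1 replicate 3, or sh3 replicate 1 or 3 (adjusted p 0.0571 to 0.145), and without sh3 replicate 3 the value was -0.13.

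Of 24 genes for procollagen export, trimming and cross-linking, 12 were higher and 3 lower in sh1 (median 0.12). In sh3, 7 were higher and 5 lower (median -0.01). Over all tested genes, 19.9% were higher and 18.8% lower in sh1, or 38.7% either way. The sh3 shares were 14.4% higher and 12.4% lower, or 26.9% either way. TLL1, a procollagen C-proteinase, averaged 4.72 FPKM in sh1, 1.93 FPKM in sh3 and 1.29 FPKM in shNC, and rose by 1.9 in sh1 (adjusted p = 6.09e-09) and by 0.58 in sh3 (adjusted p = 1.15e-04). ADAMTS2, the procollagen N-proteinase, rose by 0.88 in sh1 and PCOLCE2, an enhancer of the C-proteinases, by 0.67. Their sh3 values, 0.41 (adjusted p = 0.0404) and 0.32 (adjusted p = 0.0496), were lost in most alternatives. The ADAMTS2 call was lost (adjusted p 0.0533 to 0.154) when any 1 library other than shNC replicate 1 was left out, and the PCOLCE2 call (0.0507 to 0.183) when any 1 other than shNC replicate 3 was left out. LOX, the lysyl oxidase that cross-links collagen, fell by 0.55 in sh1 (adjusted p = 4.08e-06) and rose by 0.22 in sh3 (adjusted p = 0.00544), while its relative LOXL1 fell by 0.60 in sh3 (adjusted p = 2.15e-04) and was not called in sh1 (-0.12, adjusted p = 0.279).

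Of 15 receptor genes, 4 were higher and 5 lower in sh1 (median 0.02), and 2 were higher and 3 lower in sh3 (median -0.0017). These 9 and 5 called genes of 15 stand beside 38.7% of all tested genes called either way in sh1 and 26.9% in sh3. ITGB1, the beta subunit of the collagen-binding integrins, rose by 0.48 in sh1 and by 0.17 in sh3. ITGA1, an alpha subunit that prefers type IV collagen, fell by 0.47 in sh1 and by 0.63 in sh3. ITGA10 fell by 1.56 in sh1 and by 0.68 in sh3 (adjusted p = 0.0162, and 0.0574 to 0.0789 without shNC replicate 1 or sh3 replicate 2 or 3), and OSCAR fell by 1.84 in sh1 and was not called in sh3 (0.15, adjusted p = 0.631). Among genes whose proteins bind type VI collagen, ANTXR2 was called in neither comparison (4.38 ± 0.180 FPKM in sh1, 4.40 ± 0.256 FPKM in sh3, 4.43 ± 0.273 FPKM in shNC). ANTXR1, whose protein binds the endotrophin fragment, rose by 0.19 in sh1 (adjusted p = 0.00376) and was not called in sh3 (adjusted p = 0.958). CSPG4 averaged 0.201 FPKM in sh1, 0.226 FPKM in sh3 and 0.285 FPKM in shNC, and its fall of 0.47 in sh1 (adjusted p = 0.0288) was lost without shNC replicate 1 or 3 or sh1 replicate 1 or 3 (adjusted p 0.0752 to 0.0899), with DESeq2 (0.0504), without a filter (0.0639), with limma on log2(FPKM + 0.1) (0.0618) and with the replicate block (0.0509).

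Of 25 genes for collagen-binding matrix partners, 19 were tested, with 6 higher and 7 lower in sh1 (median -0.16) and 6 higher and 7 lower in sh3 (median -0.12), beside 38.7% of all tested genes called either way in sh1 and 26.9% in sh3. FN1, fibronectin, averaged 161 FPKM in sh1, 109.8 FPKM in sh3 and 50.6 FPKM in shNC, and rose by 1.71 and 1.12 on the log2 scale in sh1 and sh3. THBS1 rose by 1.78 in sh1 and by 0.33 in sh3 (adjusted p = 0.0188, and 0.0545 to 0.0781 without shNC replicate 1 or 2 or sh3 replicate 2 or 3), and MATN3 by 0.41 in sh1 and by 0.35 in sh3 (adjusted p = 0.0264, and 0.0941 to 0.106 without shNC replicate 1 or 2 or sh3 replicate 3). FBN2, a fibrillin, fell by 1.38 and 0.62 in sh1 and sh3, the fibril-binding LUM by 0.47 and 1.5, and NID2, which links laminin to type IV collagen, by 0.90 and 0.60. Of 14 collagen-cleaving protease genes, 12 were tested, with 4 higher and 3 lower in sh1 (median -0.07) and 5 higher and 2 lower in sh3 (median -0.03), beside the same 38.7% and 26.9% of all tested genes. MMP14, a membrane collagenase, rose by 0.78 in sh1 and by 1.99 in sh3, FAP by 1.94 and 0.68, and CTSB by 0.46 and 0.63. MMP1, the interstitial collagenase, averaged 41.8 FPKM in sh1, 108.6 FPKM in sh3 and 108.7 FPKM in shNC, and fell by 1.35 in sh1 (adjusted p = 5.52e-07) but was not called in sh3 (adjusted p = 0.999). MMP16 and CTSS likewise fell in sh1 (by 0.34 and 1.05) and were not called in sh3 (-0.18, adjusted p = 0.0535; -0.32, adjusted p = 0.164).

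The SKOV3 label was checked against 12 markers of the line and of ovarian carcinoma, of which 9 reached a mean of 1 FPKM. MUC16, also on that list, averaged below 0.1 FPKM. Of the 12, 2 were higher and 6 lower in sh1, and 2 were higher and 2 lower in sh3, than in shNC. Over all tested genes, 38.7% were called either way in sh1 and 26.9% in sh3. ERBB2, which is amplified in this line, had 485 to 520 FPKM in sh1, 831 to 877 FPKM in sh3 and 836 to 953 FPKM in shNC. Markers of matrix-making and other cells were also read. The 14 fibroblast and pericyte markers summed to 17.7 to 18.8 FPKM in sh1, 18.9 to 20.1 FPKM in sh3 and 21.8 to 25 FPKM in shNC, with 3 reaching 1 FPKM on average and PDGFRB, SFRP2 and DPT averaging below 0.1 FPKM. That list shares LUM, FAP and CSPG4 with lists above. Of the 12 tested markers in it, 3 were higher and 5 lower in sh1, and 4 were higher and 4 lower in sh3, than in shNC, with FAP among the higher and LUM among the lower in both. The endothelial sum was 11.8 to 12.9 FPKM in sh1, 29.3 to 30.9 FPKM in sh3 and 33.6 to 35.8 FPKM in shNC. Of the 12 endothelial markers, 4 reached 1 FPKM on average. Another 6, among them PECAM1, CDH5 and VWF, averaged below 0.1 FPKM. Of the 10 tested, 0 were higher and 6 lower in sh1, and 2 higher and 3 lower in sh3, than in shNC. Leukocyte markers summed to 10.6 to 11.4 FPKM in sh1, 17.6 to 18.9 FPKM in sh3 and 14.0 to 15.3 FPKM in shNC. Only 1 of the 9 reached 1 FPKM on average, so most of this sum came from 1 marker. Another 7 of the 9 averaged below 0.1 FPKM, and PTPRC was listed at 0 in 8 libraries. Of the 3 tested, 0 were higher and 2 lower in sh1, and 1 higher and 0 lower in sh3, than in shNC. Mesothelial markers summed to 10.1 to 10.8 FPKM in sh1, 12.4 to 13.3 FPKM in sh3 and 18.2 to 24.9 FPKM in shNC. Of these 9 markers, 5 reached 1 FPKM on average. Of the 7 tested, 1 was higher and 2 lower in sh1, and 1 higher and 3 lower in sh3, than in shNC. WT1 is on this list and on that of SKOV3 and ovarian carcinoma. Chondrocyte and osteoblast markers summed to 10.7 to 11.1 FPKM in sh1, 10.2 to 11.4 FPKM in sh3 and 11 to 11.8 FPKM in shNC. Of these 11 markers, 2 reached 1 FPKM on average. Of the 8 tested, 2 were higher and 2 lower in sh1, and 2 higher and 1 lower in sh3, than in shNC. MATN3 is on this list and among the collagen-binding matrix partners above. The shares over all tested genes beside these marker counts are the same 38.7% in sh1 and 26.9% in sh3. No marker with a row in the deposited gene table was at 0 in all 9 libraries. Only 9 of 12 leukocyte, 9 of 10 mesothelial and 11 of 12 chondrocyte and osteoblast symbols had a row. The part of other cells in the collagen values was not tested beyond these sums.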

How the data were processed

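Poly(A)-selected RNA of 9 SKOV3 libraries was sequenced as strand-marked 2×150 pairs, per the labels' protocols. The tools named are HISAT2 2.2.1, StringTie 2.1.6, cutadapt 1.9, edgeR and DESeq2, with the build GRCh38, per the submitters' processing notes; no source states their roles or the annotation. For each gene, the authors deposited raw read counts (whole numbers) in 9 columns. The authors also deposited FPKM in 9 further columns, named so in the file header.

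Counts were fitted with edgeR 4.0.16 in R 4.3.3 (filterByExpr with a minimum count of 10, TMM factors of 0.986 to 1.02, glmQLFit and glmQLFTest, 1 mean per group over all 9 libraries, no block). P-values were two-sided and adjusted by Benjamini-Hochberg over 21296 genes, and a gene was called under 0.05. The standard error is the absolute log2 fold change over the square root of F. At an unadjusted p under 0.05 there were 9723 genes for sh1 minus shNC, 7797 for sh3 minus shNC and 7637 for sh3 minus sh1. FPKM values served for levels, ratios (exact permutation test) and shares. Libraries held 57654447 to 69264400 counts, and floors of 3 counts cover counting error only. Between libraries of a group, chi-square over its degrees of freedom was 8.90 to 18.9, so none were duplicates.

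The members, lists and tests were chosen with earlier results of these data known. Members were given by library where they reached a mean of 1 FPKM in a group or were called in a contrast, and list genes were up to 3 called per direction with the hairpins averaged, plus ANTXR1, ANTXR2 and CSPG4. Alternatives were DESeq2 1.42.0, library totals, other filters, the replicate block, limma 3.58.1 on log2(FPKM + 1) and log2(FPKM + 0.1), and leaving out each library. Fits on only the groups compared were made for the counts of called chains. Applying them to the counts called with both hairpins was chosen after seeing the data. The edgeR and DESeq2 fits were also run on simulated counts with the same relative spread set for every gene. Only large changes were set there, so small ones were not covered. Promoter windows are RefSeq's (GRCh38.p14).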

Additional observations from a re-analysis of the deposited data

Results flagged for a closer look

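Chains called in opposite directions by the hairpins, with the difference tested directly as sh3 minus sh1, were 4. COL8A1 differed by -1.34 on the log2 scale, COL1A2 by -0.94, COL5A2 by 0.59 and COL12A1 by -0.59, each past an adjusted p of 0.05 in edgeR's quasi-likelihood test in the comparison of the hairpins. COL8A1, COL1A2 and COL12A1 were higher in sh1 and lower in sh3 than in shNC, and COL5A2 the reverse. The sh1 side of COL12A1, 0.10, was the weakest of these calls and was lost in 4 alternatives.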

How the results depend on the processing

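Over 16 alternatives, the 75 log2 values of the 25 chains described individually gave 1200 values, of which 61 changed side of the threshold and 6 changed sign. The type VI rises with both hairpins, those of COL4A1, COL4A2, COL1A1 and COL5A1, and the opposite calls of COL1A2, COL5A2 and COL8A1 kept direction and call in all 16. Sign changes were near 0 and came from leaving out 1 library: COL7A1 in sh1 (main -0.04) ranged from -0.11 to 0.022, COL18A1 for sh3 minus sh1 (0.01) from -0.018 to 0.037, COL23A1 in sh3 (-0.04) from -0.16 to 0.058, and COL27A1 in sh3 (-0.06) took 0.0064 without shNC replicate 2 and 0.00054 without sh3 replicate 1.

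Counts moved as follows. With the hairpins averaged, the chains called lower numbered 8 and ranged from 5 to 8 without 1 library. For sh3 minus sh1 the chains called higher numbered 8 and ranged from 5 to 9. Chains lower with both hairpins numbered 1, and 2 with DESeq2, with library totals and with limma on log2(FPKM + 0.1), and 1 to 2 without 1 library. Called receptor genes for sh3 minus sh1 were 7 of 15, beside 25.9% of all tested genes called either way in the main fit. With limma on log2(FPKM + 1) and on log2(FPKM + 0.1) they were 4. STXBP6 ranged from -0.15 to 2.6 in sh1 and from 1.22 to 3.54 in sh3 without 1 library. The cause of these changes was not tested. Fitting only the groups compared gave 11 chains higher and 7 lower in sh1, 12 higher and 6 lower in sh3, and 9 higher and 9 lower for sh3 minus sh1; with the hairpins averaged it is the same fit.

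Same-numbered libraries did not deviate together (correlations -0.0319 to 0.0207), so no pairing by number was seen. Correlations cannot show whether same-numbered libraries were handled together. The replicate block gave 11 chains higher and 7 lower in sh1, 12 higher and 6 lower in sh3, and 6 higher and 9 lower for sh3 minus sh1, ending the calls of COL6A3 and COL27A1 for sh3 minus sh1 and of COL24A1 in sh3, and among the other genes named that of CSPG4 in sh1. Chains with few reads (COL13A1, COL14A1, COL24A1, COL25A1) are limited by depth.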
